A study of Mus musculus with 6 samples.

Results

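The genes described here are 34 genes of sterol and fatty acid synthesis, taken from the count table by their symbols out of 23413 genes listed. The symbols come from a list of the SREBP system, the mevalonate and sterol pathway, and the synthesis, elongation and desaturation of fatty acids. The list falls into 16 sterol genes, 12 fatty acid genes and 6 genes of the SREBP system, the last with the sterol carrier Stard4 among them. All 34 were present and all 34 were among the 10724 genes with enough counts to be tested.

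RNA-seq was done on alveolar macrophages, phagocytes that live on the air side of the lung, obtained fresh by lavage of wild-type (WT) mice. In the LPS + VD3 group the WT cells received 100 ng/mL LPS, a bacterial outer membrane lipid, together with 50 nM vitamin D3 (VD3) in vitro for 4 h. In the LPS group the WT cells received 100 ng/mL LPS alone for the same 4 h, and the control group is WT cells labelled only as control. Each group has 2 libraries. Strain, sex and age of the mice, the handling of the control cells and any pooling of mice were not stated. It is likewise not stated whether both libraries of a group are from different mice or cultures. Each p-value thus measures only library-to-library spread, which may be technical. Both treated groups spent 4 h in vitro, while no time is given for the control cells. In comparisons against control, the agents therefore cannot be separated from any difference in time in culture or handling. Where LPS is said to lower or raise a gene, its level in LPS was lower or higher than in control.

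Cells make cholesterol from acetyl-CoA by way of mevalonate, squalene and lanosterol, and they make fatty acids from the same acetyl-CoA by way of malonyl-CoA. Both routes are switched on by the SREBP transcription factors, which Scap carries from the endoplasmic reticulum to the Golgi for cleavage when sterols are scarce and which Insig proteins hold back when sterols are plentiful. Alveolar macrophages also take up and break down the lipids of lung surfactant, so their lipid comes from outside as well as from synthesis.

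Total counts lay between 5022314 and 5465223 per library. The 15 alveolar macrophage markers in the table had counts in every library, with summed levels of 31600 to 33200 CPM (counts scaled to a common library size with TMM factors) in LPS + VD3, 33000 to 33200 CPM in LPS and 29700 to 30200 CPM in control. Of these 15, LPS lowered 9 and raised 3 against control, and the lowest was Fcgr1, with 12 and 8 counts in LPS + VD3, 26 and 29 in LPS, and 108 and 115 in control. Sftpc, Lamp3 and Slc34a2 of alveolar type 2 cells, S100a9, Mpo and Elane of neutrophils, Cd3e of T cells and Col3a1 of stroma had 0 counts in every library. Other genes of the type 2 and neutrophil lists did have counts: Lyz1 had 7736 to 12650, Abca3 357 to 610 and Napsa 96 to 138, and these 3 passed in no comparison. In the lymphocyte list Cd3d had 2 to 14 counts per library. In the stroma and endothelium list Cdh5 had 6 to 14 and passed in no comparison. The neutrophil list summed to 35.7 and 28.8 CPM in LPS + VD3, 19.7 and 26.7 CPM in LPS, and 18.6 and 16.2 CPM in control. Its S100a8 and Cxcr2 were higher in LPS + VD3 than in control by 0.81 ± 0.24 and 0.97 ± 0.27 on the log2 scale (edgeR adjusted p = 0.0239 and 0.0189), but did not pass with DESeq2 (0.0614 and 0.0732). The airway epithelium list summed to 38.9 and 51.9 CPM in LPS + VD3, 33.6 and 37.4 CPM in LPS, and 223 and 240 CPM in control. Almost all of that sum was Cdh1, with 179 and 250 counts in LPS + VD3, 148 and 177 in LPS, and 1295 and 1485 in control, while no other gene of the list passed 8 counts in a library. The monocyte and interstitial macrophage list summed to 1.88 and 6.16 CPM in LPS + VD3, 8.81 and 5.45 CPM in LPS, and 10.4 and 10.9 CPM in control. Its Ccr2 had 1 and 1 counts in LPS + VD3, 3 and 5 in LPS, and 33 and 48 in control. The log2 fold change of Ccr2 against control was -4.88 ± 0.56 in LPS + VD3 and -3 ± 0.43 in LPS (edgeR adjusted p = 5.95e-05 and 0.00028). The part of these markers in the results was not tested. In bulk RNA, fewer cells of a type and less RNA per cell cannot be told apart.

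The LPS libraries differed from each other more than the libraries of the other groups. LPS 1 also carries a title numbered apart from those of the 5 remaining libraries, for which the labels give no reason. Genes with GC-rich transcripts tended to be higher in LPS 1 than in LPS 2, with a Spearman's rho between GC content and that difference of 0.655 across 10649 genes and 0.742 across the 34 genes, against 0.18 and 0.15 for the LPS + VD3 pair and 0.235 and 0.392 for the control pair. These are correlations across genes, which share the libraries and are not independent, and carry no p-value. Of the 34 genes, 10 were more than 0.5 log2 units higher in LPS 1 than in LPS 2. In the first of the LPS + VD3 libraries 1 was that much higher, and in the first of the control libraries 0. The same count was not made over all genes tested, so these counts do not show a difference particular to the 34. Because the LPS libraries differ, results that rest on the LPS group are given with both libraries for many genes. Other genes are given as a fold change alone. Where a call of one of the 34 in a comparison with LPS changes without LPS 1 or LPS 2, that is given too. A fit without 1 library leaves its group with a single library, which is assumed to vary like the other groups. The SE and adjusted p of a fit without LPS 1 or LPS 2 thus hold nothing of the spread between the LPS libraries.

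The sequence just upstream of these genes was examined because the SREBP proteins and their partner factors bind there. RefSeq promoter windows (build GRCm38.p6, 250 bases before to 50 after the transcript start) were had for 27 of the 34 genes. The motif TCACNCCAC, a form of the sterol regulatory element, was sought on both strands together with CCAAT, the core bound by NF-Y, which on the other strand reads ATTGG. These motifs do not overlap in letters. The windows below are those of a mevalonate pathway gene and 2 fatty acid genes that were lower in LPS, Hmgcs1, Fasn and Elovl6, and of Insig1, which did not pass the test. They were chosen with the values known, and capitals mark TCACNCCAC and CCAAT on either strand.
Hmgcs1, chr13:119690101-119690400, plus strand: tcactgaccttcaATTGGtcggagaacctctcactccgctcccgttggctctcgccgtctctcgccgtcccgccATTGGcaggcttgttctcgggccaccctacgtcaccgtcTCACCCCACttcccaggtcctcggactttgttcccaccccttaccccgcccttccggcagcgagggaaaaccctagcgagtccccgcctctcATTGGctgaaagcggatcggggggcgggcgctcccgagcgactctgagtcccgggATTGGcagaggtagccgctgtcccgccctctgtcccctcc
Fasn, chr11:120824498-120824797, minus strand: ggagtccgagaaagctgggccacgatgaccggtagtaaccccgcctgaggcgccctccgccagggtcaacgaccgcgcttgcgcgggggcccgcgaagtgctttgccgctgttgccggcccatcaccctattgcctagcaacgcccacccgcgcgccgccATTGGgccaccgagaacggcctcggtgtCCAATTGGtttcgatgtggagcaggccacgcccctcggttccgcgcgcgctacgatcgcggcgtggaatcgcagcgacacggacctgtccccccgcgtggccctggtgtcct
Elovl6, chr3:129532136-129532435, plus strand: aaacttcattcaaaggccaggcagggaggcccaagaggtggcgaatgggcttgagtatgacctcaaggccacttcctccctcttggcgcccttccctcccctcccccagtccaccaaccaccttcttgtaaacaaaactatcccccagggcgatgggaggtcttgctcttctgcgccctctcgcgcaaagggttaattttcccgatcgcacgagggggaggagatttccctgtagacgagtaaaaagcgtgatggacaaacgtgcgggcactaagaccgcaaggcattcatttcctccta
Insig1, chr5:28071162-28071461, plus strand: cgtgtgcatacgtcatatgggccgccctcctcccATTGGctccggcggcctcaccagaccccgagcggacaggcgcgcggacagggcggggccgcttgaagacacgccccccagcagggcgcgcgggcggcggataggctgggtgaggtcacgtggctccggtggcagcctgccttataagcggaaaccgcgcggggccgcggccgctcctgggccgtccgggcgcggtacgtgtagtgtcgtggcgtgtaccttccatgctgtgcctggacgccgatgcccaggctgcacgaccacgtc

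The Hmgcs1 window held the 1 exact TCACNCCAC among the 27 genes, with its first base at position -137 from the transcript start, and 4 copies of CCAAT. Fasn held 3 copies of CCAAT, 2 of them overlapping as CCAATTGG, Insig1 held 1, and Elovl6 held neither motif. CCAAT stood in the windows of 22 of the 27 genes (81.5%), in 12 of 13 sterol genes (92.3%), 6 of 9 fatty acid genes (66.7%) and 4 of 5 SREBP system genes, against 43.8% of the 8098 tested genes with a window and 41.1% of all 27025 genes with one. TCACNCCAC stood in 1 of 27 (3.7%), against 1.33% of tested genes, and with 1 mismatch allowed in 11 of 27 (40.7%), against 29.0% of tested genes. The Sp1 motif GGGCGG stood in 22 of 27 (81.5%), against 69.8% of tested genes, and the palindrome CACGTG in 5 of 27 (18.5%), against 12.4%. A match describes the letters of a window and is not a binding site, and no binding was measured.

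LPS against control asked how cells given LPS alone differed from control cells, whose time in culture is not stated. LPS lowered 19 of the 34 genes and raised 0, where a gene is called at a Benjamini-Hochberg adjusted p under 0.05 in edgeR's quasi-likelihood test over all 10724 genes. Over all genes tested, 3411 (31.8%) were called, 1732 (16.2%) of them lower and 1679 (15.7%) higher. The 19 were 10 of 16 sterol genes, 8 of 12 fatty acid genes and 1 of 6 SREBP system genes. The median log2 fold change was -0.81 over the sterol genes, -1.26 over the fatty acid genes and 0.19 over the SREBP system genes, against 0.01 over all genes tested. In 14 of the 34 the called level in LPS was at least 2-fold below control, which was so for 9.99% of all genes. In 25 of the 34 both LPS libraries lay below both control libraries, which was so for 33.6% of all genes, and in 2 both lay above, which was so for 31.6%. Without LPS 1, 24 of the 34 were called lower and 1 higher, against 18.8% and 17.8% of all genes. Without LPS 2, 20 were called lower and 3 higher, against 21.7% and 22.0% of all genes. With libraries scaled by their totals alone, which moved the median of all genes to -0.29, 24 of the 34 were called lower, against 28.5% of all genes.

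**Figure D1:**
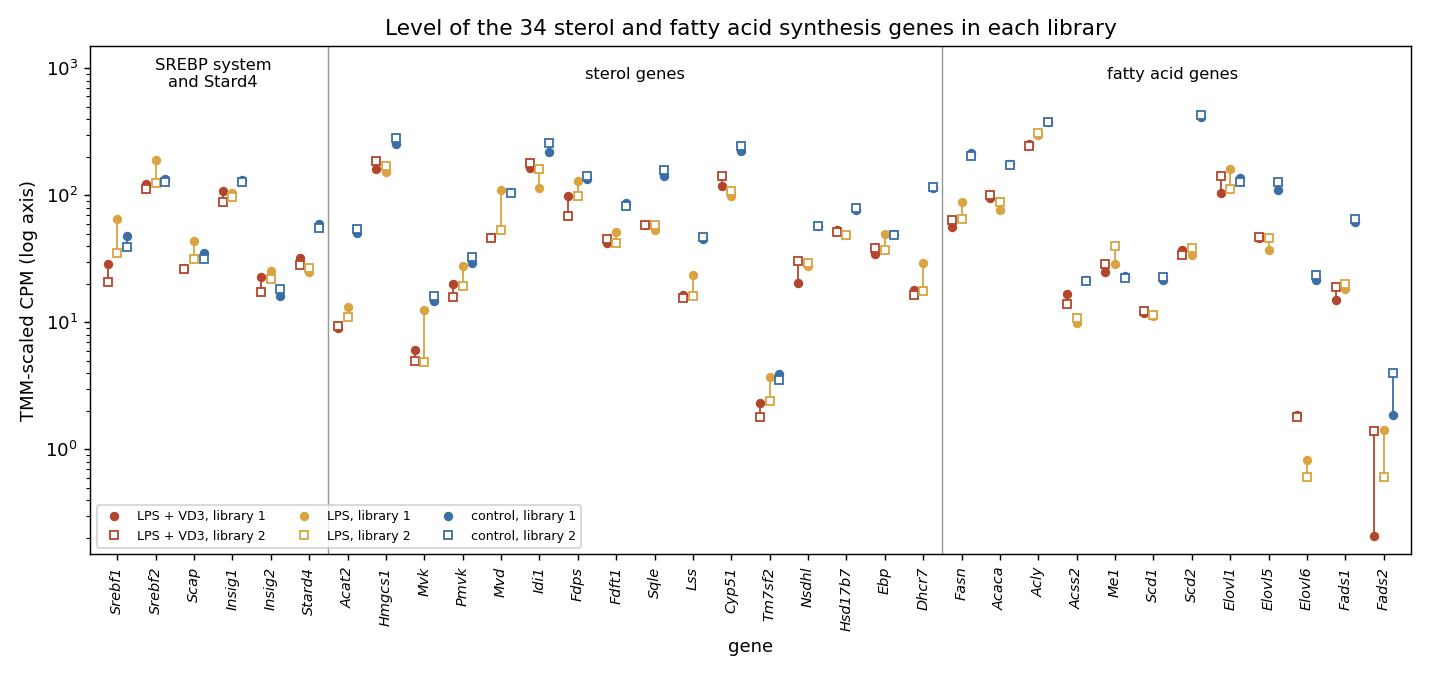
Level of each of the 34 genes in each of the 6 libraries, in TMM-scaled CPM on a log axis, grouped into the SREBP system with Stard4, the sterol genes and the fatty acid genes; filled circles are library 1 and open squares library 2, joined by a line. Scd2 and Elovl6 lie farthest below control in LPS and LPS + VD3, and the LPS libraries stand apart in Mvk, Mvd and Srebf1.

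Summed over the 16 sterol genes, the level was 869.9 and 912.5 CPM in the LPS + VD3 libraries, 946.5 and 876.5 CPM in the LPS libraries, and 1611 and 1727 CPM in the control libraries. The 12 fatty acid genes summed to 666.3 and 706.4 CPM in LPS + VD3, 767.6 and 740.8 CPM in LPS, and 1580 and 1600 CPM in control. In both sums the libraries of both treated groups lay below both control libraries. The 6 SREBP system genes summed to 341.4 and 294.8 CPM in LPS + VD3, 454.3 and 336.1 CPM in LPS, and 426.5 and 399.4 CPM in control, where the LPS and control libraries overlapped. As a share of all counts, the 34 genes made up 0.173% and 0.176% in LPS + VD3, 0.206% and 0.183% in LPS, and 0.421% and 0.427% in control.

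**Figure D2:**
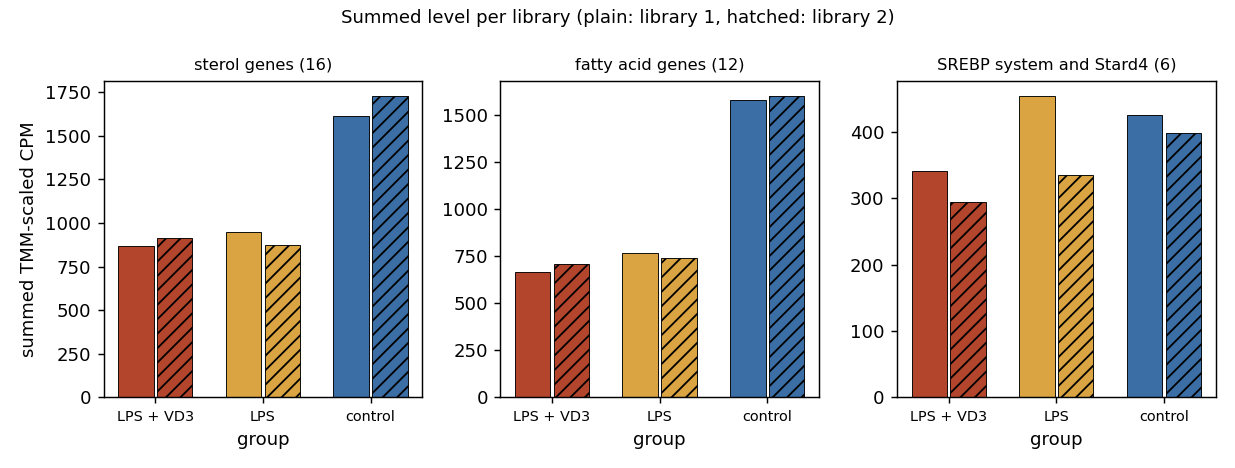
Summed level of the 16 sterol genes, the 12 fatty acid genes and the 6 genes of the SREBP system with Stard4, in TMM-scaled CPM, 1 bar per library (plain for library 1, hatched for library 2), axes from 0. The sterol and fatty acid sums are below both control bars in all 4 treated libraries, while for the SREBP system LPS 1 (454.3 CPM) is above control and LPS 2 (336.1 CPM) below.

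The first steps of the sterol route join acetyl-CoA units into mevalonate. Acat2, the cytosolic thiolase that makes acetoacetyl-CoA, had 8.99 and 9.34 CPM in LPS + VD3, 13.3 and 11.1 CPM in LPS, and 50.1 and 54.1 CPM in control. It fell in LPS by 2.09 ± 0.20 on the log2 scale (SE; adjusted p = 2.48e-05 in edgeR's quasi-likelihood test with Benjamini-Hochberg adjustment), a level 4.26-fold below control, with no overlap of libraries. Of the 50-base stretches of the Acat2 transcript, 45.9% also occur in Acat3, which had 0 to 5 counts per library. Hmgcs1, the HMG-CoA synthase whose window holds the exact sterol element, had 160 and 187 CPM in LPS + VD3, 152 and 169 CPM in LPS, and 255 and 284 CPM in control. It fell by 0.75 ± 0.15 (edgeR adjusted p = 0.00436), and all treated libraries were below both control libraries, but without control 2 the adjusted p was 0.0823.

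The next enzymes turn mevalonate into isoprenoid units. Mvk (mevalonate kinase), Pmvk (phosphomevalonate kinase) and Mvd (mevalonate diphosphate decarboxylase) did not pass the test in LPS against control, with log2 fold changes of -0.83 ± 0.35, -0.41 ± 0.22 and -0.38 ± 0.27. Mvd, given here after its values were seen, had 47.0 and 46.5 CPM in LPS + VD3, 110 and 53.1 CPM in LPS, and 107 and 105 CPM in control. Its LPS 1 library was thus at the control level and its LPS 2 library near the LPS + VD3 level. Mvk, likewise named after its values were seen, had 6.06 and 4.97 CPM in LPS + VD3, 12.5 and 4.85 CPM in LPS, and 14.7 and 16.2 CPM in control. Without LPS 1, all of Mvk, Pmvk and Mvd were called lower, with Mvd at -1.01 ± 0.15 (edgeR adjusted p = 9.82e-05), where the SE comes from the control and LPS + VD3 libraries.

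Idi1, the isopentenyl diphosphate isomerase, had 165 and 180 CPM in LPS + VD3, 115 and 162 CPM in LPS, and 218 and 257 CPM in control. It fell in LPS by 0.78 ± 0.19 (edgeR adjusted p = 0.00964), and here LPS 1 was the lowest library of all. Without control 2 its adjusted p was 0.117. Fdps, the farnesyl diphosphate synthase, was among the genes not called, at -0.28 ± 0.20, and was called without LPS 1, at -0.51 ± 0.18 (edgeR adjusted p = 0.0409). Of their 50-base stretches, 21.3% of Idi1 and 11.7% of Fdps also occur in other annotated genes, so reads of either may have been split.

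From farnesyl diphosphate onward the route is committed to sterols. Fdft1, the squalene synthase, had 42.0 and 45.1 CPM in LPS + VD3, 51.8 and 42.2 CPM in LPS, and 86.7 and 82.9 CPM in control. Both LPS libraries were below both control libraries, at a log2 fold change of -0.85 ± 0.17 (edgeR adjusted p = 0.00332). The 774 exon bases that Fdft1 shares with Ctsb lie on opposite strands, and Ctsb had 11737 to 14615 counts per library. Without a stated strand setting, reads there cannot be assigned to either gene. Fdft1 also shares 10.9% of its 50-base stretches with the annotated gene Gm6781. Sqle, the squalene epoxidase and a control point of the pathway, had 58.3 and 58.8 CPM in LPS + VD3, 53.1 and 58.0 CPM in LPS, and 142 and 157 CPM in control. It fell by 1.43 ± 0.16 (edgeR adjusted p = 6.72e-05), with treated libraries within 6 CPM of each other and far below both control libraries. Lss, which closes squalene epoxide into lanosterol, had 16.5 and 15.5 CPM in LPS + VD3, 23.6 and 16 CPM in LPS, and 45.3 and 47.2 CPM in control, a log2 fold change of -1.23 ± 0.21 in LPS (edgeR adjusted p = 0.00145).

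Lanosterol is then trimmed to cholesterol. Cyp51, the lanosterol demethylase, had 119 and 142 CPM in LPS + VD3, 99.0 and 108 CPM in LPS, and 225 and 244 CPM in control. Nsdhl, a sterol dehydrogenase that acts in removal of the methyl groups, had 20.3 and 30.6 CPM in LPS + VD3, 27.9 and 29.5 CPM in LPS, and 57.5 and 57.8 CPM in control. For both, no treated library reached a control library, and the log2 fold change in LPS was -1.18 ± 0.16 for Cyp51 and -1.01 ± 0.21 for Nsdhl (edgeR adjusted p = 0.000265 and 0.00415). Hsd17b7, the sterol ketoreductase, had 53.7 and 51.1 CPM in LPS + VD3, 49.0 and 48.9 CPM in LPS, and 76.5 and 79.5 CPM in control. Its log2 fold change of -0.67 ± 0.15 was the smallest among the sterol genes called (edgeR adjusted p = 0.00758), and the call was lost without control 1 (0.0787) or control 2 (0.112). Dhcr7, which reduces dehydrocholesterol to cholesterol and so uses the precursor of vitamin D, had 18.0 and 16.5 CPM in LPS + VD3, 29.1 and 17.6 CPM in LPS, and 114 and 117 CPM in control. It had the largest change of the 16 sterol genes, -2.31 ± 0.23 or 4.95-fold lower (edgeR adjusted p = 3.4e-05). Tm7sf2, a sterol reductase with 9 to 23 counts per library, and Ebp, the sterol isomerase, did not pass, at -0.28 ± 0.37 and -0.18 ± 0.19.

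The 10 sterol genes called lower and the 6 not called differed in how the LPS libraries compared. The calls were made from these same libraries, so this comparison is not independent of them. It does not show why the 6 were not called. In all 6 that were not called (Mvk, Pmvk, Mvd, Fdps, Tm7sf2 and Ebp), LPS 1 was above LPS 2, by 0.39 to 1.28 log2 units, and their GC content was 50.6% to 59.0%. In the 10 called, LPS 1 ranged from 0.49 log2 units below LPS 2 to 0.71 above it, and GC content was 41.9% to 52.8%. All 16 had a negative log2 fold change, but the 95% intervals of Pmvk, Mvd, Fdps, Tm7sf2 and Ebp included 0. After a per-library correction for GC content, 13 of the 16 were called lower, among them Mvk, Pmvk and Mvd, while the share of all genes called lower was 21.8%, against 16.2% without the correction.

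**Figure D3:**
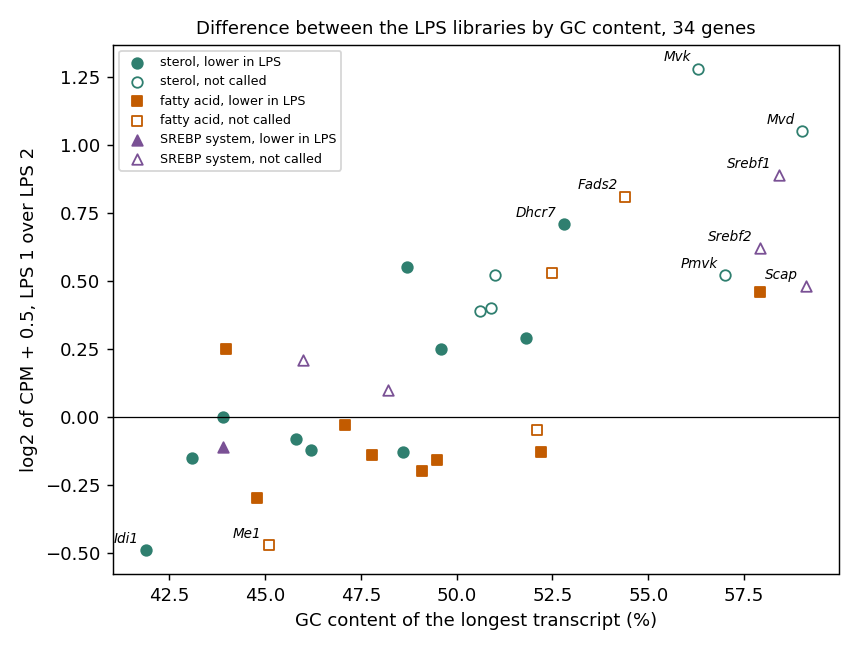
Difference between the LPS libraries (log2 of CPM plus 0.5, LPS 1 over LPS 2) against the GC content of the longest transcript in percent, 1 point per gene for the 34 genes; filled points were called lower in LPS against control and open points were not. Genes of high GC content, such as Mvk, Mvd and Srebf1, lie highest, and all 6 open sterol points are above 0.

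**Figure D4:**
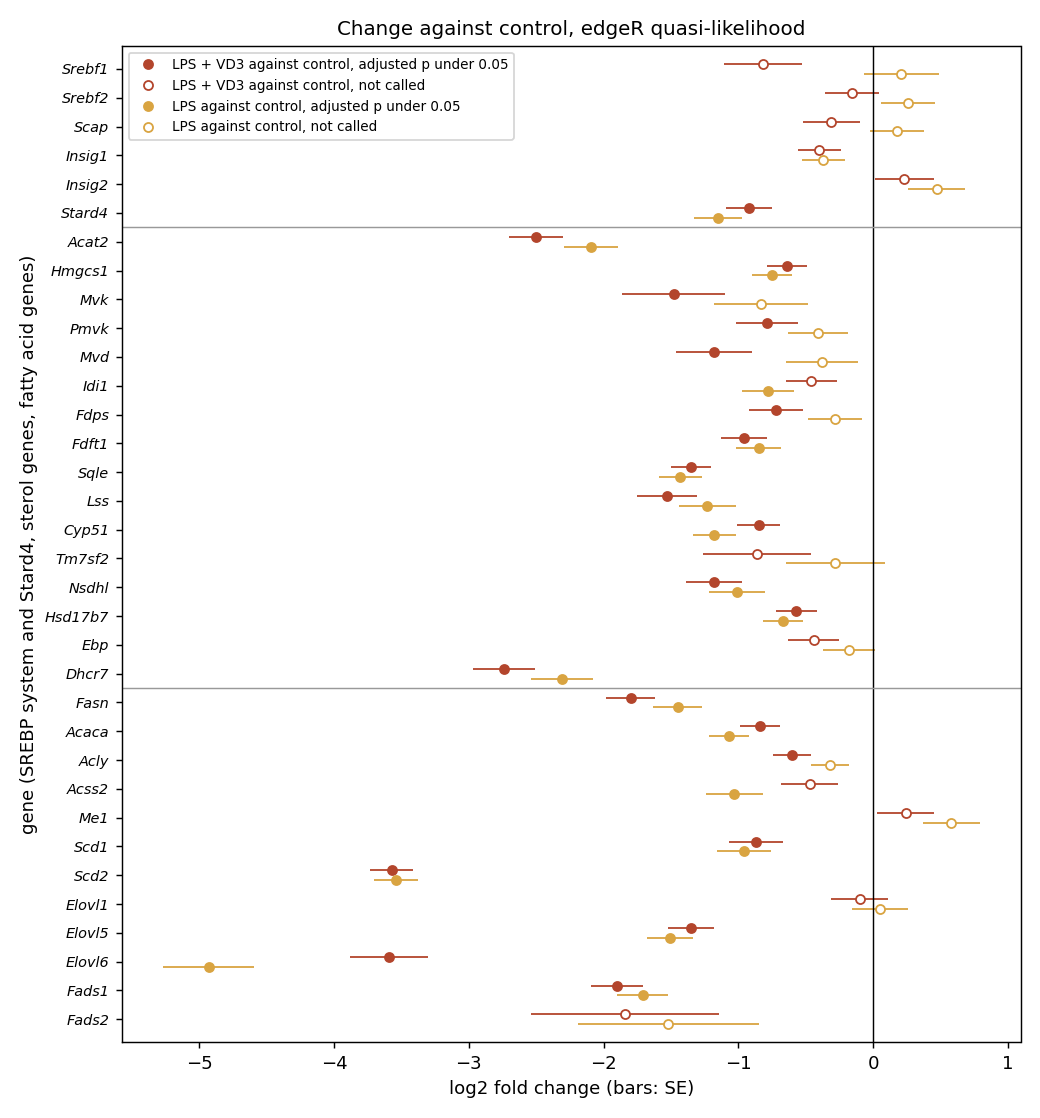
Log2 fold change against control of each of the 34 genes in LPS + VD3 and in LPS, with bars for the SE of the fit; filled points have an edgeR adjusted p under 0.05. The points of the sterol and fatty acid genes lie mostly left of 0 in both comparisons, with Elovl6 and Scd2 farthest left, and the control libraries are shared by both.

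Among the fatty acid genes, those that supply acetyl-CoA and NADPH did not move alike. Acss2, which makes acetyl-CoA from acetate, had 16.7 and 13.9 CPM in LPS + VD3, 9.84 and 10.9 CPM in LPS, and 21.4 and 21.0 CPM in control, a log2 fold change of -1.03 ± 0.21 in LPS (edgeR adjusted p = 0.00454). Acly, which makes it from citrate and was the member with the second highest level per exon length in control (81.7 RPKM), did not pass at -0.32 ± 0.14 (edgeR adjusted p = 0.108), and passed without LPS 2, at -0.34 ± 0.13 (0.0434). Me1, the malic enzyme that supplies NADPH, did not pass at 0.58 ± 0.21 (edgeR adjusted p = 0.057). Me1 shares 26.5% of its 50-base stretches with the annotated genes Gm7049 and Gm7329, so its level is uncertain. Its LPS libraries, 28.7 and 39.8 CPM, lay above the control libraries, 23.3 and 22.4 CPM, and without LPS 1 it was called higher by 0.78 ± 0.18 (edgeR adjusted p = 0.00339).

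Acaca, the carboxylase that makes malonyl-CoA, had 96.0 and 99.8 CPM in LPS + VD3, 77.3 and 88.9 CPM in LPS, and 176 and 174 CPM in control. Fasn, the fatty acid synthase, had 56.7 and 63.8 CPM in LPS + VD3, 89.3 and 64.8 CPM in LPS, and 215 and 205 CPM in control. The treated libraries of both genes lay below both control libraries, and the log2 fold change in LPS was -1.07 ± 0.15 for Acaca and -1.45 ± 0.18 for Fasn (edgeR adjusted p = 0.000384 and 0.000181). Of the 50-base stretches of Acaca, 52.6% also occur in the annotated gene Gm5182, so its level is uncertain.

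The largest falls were in desaturation and elongation. Scd2, a stearoyl-CoA desaturase that makes monounsaturated fatty acids, had 36.8 and 34.2 CPM in LPS + VD3, 34.2 and 38.2 CPM in LPS, and 413 and 432 CPM in control. Its log2 fold change in LPS was -3.54 ± 0.16, or 11.7-fold lower (edgeR adjusted p = 1.9e-07), and the 4 treated libraries lay close together. Its neighbour and near relative Scd1 had 11.9 and 12.3 CPM in LPS + VD3, 11.3 and 11.5 CPM in LPS, and 21.4 and 22.9 CPM in control, a log2 fold change of -0.96 ± 0.20 in LPS (edgeR adjusted p = 0.00495) that did not pass without control 2 (0.0716). In control, the level per exon length was 77.5 RPKM for Scd2 and 4.58 RPKM for Scd1. In LPS it was 6.64 RPKM for Scd2 and 2.36 RPKM for Scd1. Both genes lie on chromosome 19 of mm10, Scd2 at 44293674 to 44306864 and Scd1 at 44394455 to 44407879, and 4.01% and 4.66% of their 50-base stretches occur in other Scd genes.

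Elovl6, the elongase that takes palmitate to stearate and lies on chromosome 3 at 129532355 to 129638495, had the largest change of the 34. It had 9 and 9 counts in LPS + VD3, 4 and 3 in LPS, and 125 and 146 in control, which is 1.88 and 1.79 CPM in LPS + VD3, 0.82 and 0.606 CPM in LPS, and 21.4 and 23.4 CPM in control. The log2 fold change in LPS was -4.93 ± 0.34 (edgeR adjusted p = 3.22e-06), with a 95% interval of -5.69 to -4.17. Elovl5, which elongates polyunsaturated fatty acids, had 46.2 and 47.3 CPM in LPS + VD3, 37.3 and 46.1 CPM in LPS, and 111 and 128 CPM in control, a log2 fold change of -1.51 ± 0.17 in LPS (edgeR adjusted p = 9.68e-05). Elovl1, an elongase of very long chains, was not called at 0.05 ± 0.21, and its LPS libraries fell on both sides of the control libraries.

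Fads1, the delta-5 desaturase of polyunsaturated fatty acids, had 15.1 and 18.9 CPM in LPS + VD3, 18.4 and 20.2 CPM in LPS, and 61.9 and 64.7 CPM in control. Its log2 fold change in LPS was -1.71 ± 0.19, or 3.27-fold lower, with no overlap (edgeR adjusted p = 7.17e-05). Fads2, the delta-6 desaturase, had only 1 to 25 counts per library, and its log2 fold change of -1.52 ± 0.67 did not pass (edgeR adjusted p = 0.112). At this depth a change of that size could not be resolved for Fads2.

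Of the 6 genes of the SREBP system, 1 was called in LPS against control. Srebf2, which encodes SREBP-2, the main driver of sterol genes, had 122 and 113 CPM in LPS + VD3, 191 and 124 CPM in LPS, and 135 and 128 CPM in control. Srebf1, which encodes the SREBP-1 forms that drive fatty acid genes, had 28.8 and 20.7 CPM in LPS + VD3, 65.6 and 35.2 CPM in LPS, and 48.2 and 39.0 CPM in control. In both, LPS 1 was the highest and LPS 2 below the control libraries, so the groups overlapped and neither passed in LPS against control, at 0.26 ± 0.20 for Srebf2 and 0.21 ± 0.28 for Srebf1 (edgeR adjusted p = 0.363 and 0.616). With libraries scaled by their totals alone both turned slightly negative, at -0.04 and -0.09, and without LPS 2 both were called higher, at 0.53 ± 0.13 and 0.59 ± 0.19 (edgeR adjusted p = 0.005 and 0.0244).

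Scap, the escort of SREBP, did not pass at 0.18 ± 0.20 and was at -0.12 when scaled by library totals. Insig1, the retention protein that is itself an SREBP target, had 108 and 88.8 CPM in LPS + VD3, 104 and 96.8 CPM in LPS, and 132 and 128 CPM in control. All its treated libraries were below both control libraries, yet the difference of LPS from control, -0.37 ± 0.16, did not pass (edgeR adjusted p = 0.1), and it was called lower without LPS 1 (0.0351). Insig2, the other retention protein, did not pass at 0.47 ± 0.21, and was called higher without LPS 2, at 0.57 ± 0.22 (edgeR adjusted p = 0.0466). Stard4, a carrier that moves cholesterol between membranes, was the gene of this group that was called: it had 32.4 and 28.4 CPM in LPS + VD3, 24.8 and 26.9 CPM in LPS, and 59.7 and 55.1 CPM in control. The log2 fold change of Stard4 in LPS was -1.15 ± 0.18, or 2.22-fold lower, with no overlap (edgeR adjusted p = 0.000648).

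LPS + VD3 against LPS asked what vitamin D3 added. In edgeR's test 0 of the 34 genes were called in either direction, while 411 of 10724 genes were called (3.83%), 241 of them higher (2.25%) and 170 lower (1.59%). At an unadjusted p under 0.05 the count was 5 of 34 (14.7%), against 22.1% of all genes, and DESeq2 called 1, Srebf1. The median log2 fold change was -0.28 over the sterol genes, -0.09 over the fatty acid genes and -0.33 over the SREBP system genes, against 0.00 over all genes tested. For 27 of the 34 the 95% interval of the difference lay within a 2-fold change either way. It reached past 2-fold for the other 7. In Mvk, Tm7sf2 and Fads2 it also included 0, so a change of that size could not be told from none, while in Srebf1, Mvd, Acss2 and Elovl6 it lay on 1 side of 0 before adjustment.

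The 5 with an unadjusted p under 0.05 were Srebf1, Scap and Mvd, which were lower, and Acss2 and Elovl6, which were higher. Srebf1 was at -1.02 ± 0.29 in LPS + VD3 against LPS, with a 95% interval of -1.68 to -0.37 (edgeR adjusted p = 0.0937), and both LPS + VD3 libraries lay below both LPS libraries. DESeq2 gave it -1.04 with an adjusted p of 0.0211. Mvd was at -0.80 ± 0.28 and Scap at -0.49 ± 0.21 (edgeR adjusted p = 0.144 and 0.202). Acss2 was at 0.56 ± 0.22, and Elovl6 at 1.34 ± 0.53 with an interval of 0.16 to 2.51 (edgeR adjusted p = 0.185 and 0.181). In these 5 genes the libraries of both groups did not overlap, which was so for 8 of the 34 genes in the lower direction and 10 in the higher, against 23.5% and 24.6% of all genes.

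This comparison turned on LPS 2. Without it, 3670 genes (33.3%) were called over the whole table and 11 of the 34 (32.4%) were among them, a share near that of all genes, Idi1 higher and Srebf1, Srebf2, Scap, Mvk, Pmvk, Mvd, Fdps, Lss, Dhcr7 and Fasn lower. Against LPS 1 alone, Srebf1 was at -1.40 ± 0.20 and Mvd at -1.23 ± 0.14 (edgeR adjusted p = 0.000327 and 7.13e-05), with the SE taken from the other groups. Without LPS 1, 0 of the 34 were called. In all the lower ones LPS 1 was above LPS 2, and in Idi1 it was below. These genes were picked by their call without LPS 2, so this direction largely follows from the choice.

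**Figure D5:**
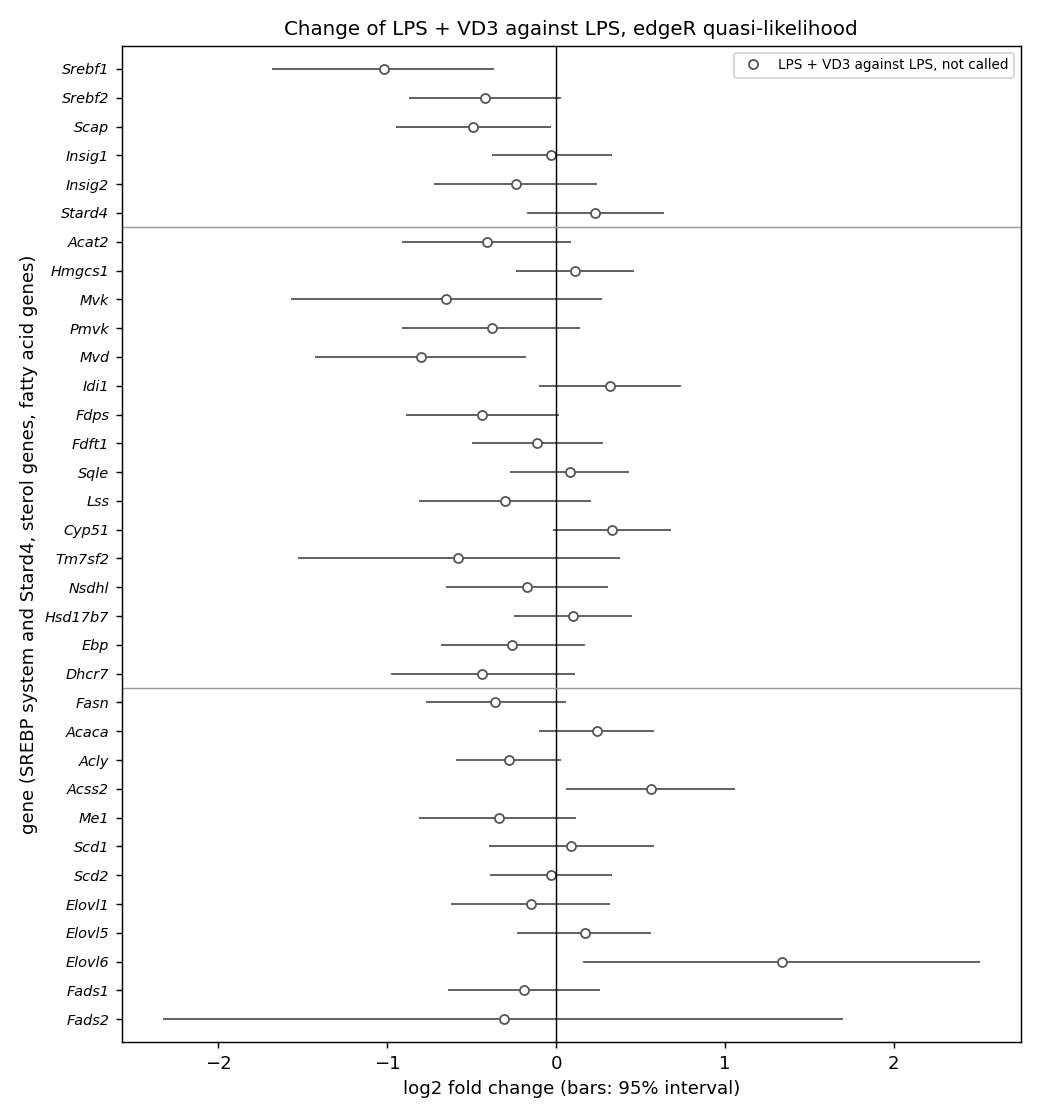
Log2 fold change of LPS + VD3 against LPS for each of the 34 genes, with bars for the 95% interval; open points were not called. The intervals of Srebf1, Scap and Mvd lie below 0 and those of Acss2 and Elovl6 above 0 before adjustment, and Fads2 has the widest bar.

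LPS + VD3 against control asked whether the cells with both agents differed from control cells. In this comparison, 22 of the 34 genes were lower and 0 higher, with 3749 of all tested genes called (35%), 1854 of them lower (17.3%) and 1895 higher (17.7%). The 22 were 13 of 16 sterol genes, 8 of 12 fatty acid genes and Stard4. The median log2 fold change was -0.91 over the sterol genes, -1.11 over the fatty acid genes and -0.36 over the SREBP system genes, against 0.01 over all genes. This comparison shares its control libraries with LPS against control, so the values are only set side by side.

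Dhcr7 was at -2.74 ± 0.23 on the log2 scale in LPS + VD3 against control (edgeR adjusted p = 1.18e-05) and at -2.31 in LPS against control. Acat2 was at -2.50 ± 0.20 (edgeR adjusted p = 8.34e-06), beside -2.09 in LPS against control. Scd2 was at -3.57 ± 0.16 (edgeR adjusted p = 1.65e-07), beside -3.54. Elovl6 was at -3.59 ± 0.29 (edgeR adjusted p = 7.87e-06), beside -4.93. Fasn and Fads1 were at -1.80 ± 0.18 and -1.90 ± 0.19, beside -1.45 and -1.71. Mvk, Pmvk, Mvd and Fdps, which did not pass in LPS against control, passed here, at -1.48 ± 0.38, -0.79 ± 0.23, -1.18 ± 0.28 and -0.72 ± 0.20 (edgeR adjusted p = 0.0121, 0.0224, 0.00855 and 0.0209). Pmvk had 20.1 and 15.9 CPM in LPS + VD3, 27.7 and 19.2 CPM in LPS, and 29.6 and 32.6 CPM in control. Fdps had 99.1 and 69.0 CPM in LPS + VD3, 129 and 98.2 CPM in LPS, and 135 and 142 CPM in control. In both genes all treated libraries lay below both control libraries. Acly also passed here, at -0.60 ± 0.14 (edgeR adjusted p = 0.00731), with 255 and 243 CPM in LPS + VD3, 298 and 307 CPM in LPS, and 378 and 376 CPM in control. Idi1 and Acss2, which passed in LPS against control, did not pass here, at -0.46 ± 0.19 and -0.47 ± 0.21 (edgeR adjusted p = 0.0824 and 0.105). None of these 7 was called in LPS + VD3 against LPS, so a difference between the treated groups was not shown for them.

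Srebf1 was at -0.82 ± 0.29 in LPS + VD3 against control (edgeR adjusted p = 0.0539), with both LPS + VD3 libraries below both control libraries, and Srebf2 at -0.16 ± 0.20. Insig1 was at -0.40 ± 0.16 and Insig2 at 0.23 ± 0.22, and neither passed. Srebf1 also did not pass with DESeq2's size factors in edgeR, with limma-voom or without the filter. Nor did Srebf1 pass when any control or LPS + VD3 library was left out. It did pass with DESeq2 (0.0299), with the GC correction (0.0201) and with library totals alone (0.0115). It also passed with only the LPS + VD3 and control libraries in the fit (0.00236). That last fit called 28 of the 34 lower, with Insig1, Idi1, Acss2, Ebp and Fads2 also among them, against 24.9% of all genes. In 31 of the 34 genes both LPS + VD3 libraries lay below both control libraries, which was so for 37.4% of all genes, and in 1, Me1, both lay above, which was so for 38.4%. Leaving out 1 library of either group left 15 to 17 of the 34 called lower, against 9.59% to 10.7% of all genes, and Mvk, Pmvk, Mvd, Fdps, Acly, Hmgcs1, Hsd17b7 and Scd1 each lost their call in at least 1 such fit.

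Other genes of these pathways, from lists chosen with earlier results of these data known, were read in the same fit. Over all genes tested, 15.7% were higher and 16.2% lower in LPS than in control. Whether the shares in these small lists differ from those was not tested. Of 11 further sterol and cholesterol handling genes tested, LPS lowered 6 and raised 0. Nceh1, which frees cholesterol from its esters, fell by 2.33 ± 0.16 on the log2 scale to 65.0 and 72.9 CPM in LPS, against 350 and 344 CPM in control (edgeR adjusted p = 2.88e-06). Soat1, which makes those esters, fell by 1.64 ± 0.17 to 153 and 202 CPM in LPS, against 549 and 561 CPM in control (edgeR adjusted p = 4.42e-05). Sc4mol and Sc5d, enzymes of the last sterol steps, fell by 0.82 ± 0.15 and 1.00 ± 0.18. LPS + VD3 differed from LPS in 0 of the 11, and from control in 7, all lower.

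Of 10 genes for SREBP processing and turnover, LPS raised 2 and lowered 0. Rnf145, a sterol-responsive ubiquitin ligase, was higher by 1.05 ± 0.18 (edgeR adjusted p = 0.00117). Ufd1l was higher by 0.47 ± 0.16 (edgeR adjusted p = 0.0446), but not under DESeq2 (0.09) or with library totals alone (0.421). The proteases that cleave SREBP, Mbtps1 and Mbtps2, did not pass, at -0.05 ± 0.16 and -0.46 ± 0.23. Fbxw7, part of a ubiquitin ligase that degrades nuclear SREBP, was the gene of this list called in LPS + VD3 against LPS, with 62.9 and 75.1 CPM in LPS + VD3, 24.2 and 36.8 CPM in LPS, and 25.7 and 22.6 CPM in control. The difference was 1.18 ± 0.22 (edgeR adjusted p = 0.0167), and it did not pass without LPS + VD3 1 (0.105), without LPS + VD3 2 (0.256) or without the filter on low counts (0.086).

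Of 19 further fatty acid genes, LPS raised 3 and lowered 4, beside 15.7% raised and 16.2% lowered over all genes tested. Acsl1, which activates fatty acids to their CoA esters, had 805 and 851 CPM in LPS + VD3, 1060 and 1120 CPM in LPS, and 113 and 119 CPM in control, a rise in LPS of 3.23 ± 0.15 (edgeR adjusted p = 2.07e-07). Acsl3, of the same enzyme family, fell by 1.80 ± 0.31 (edgeR adjusted p = 0.00132). Lpin1, a phosphatidate phosphatase that also acts in the nucleus on SREBP, fell by 3.09 ± 0.22 to 5.12 and 7.07 CPM in LPS, against 51.8 and 52.5 CPM in control (edgeR adjusted p = 4.1e-06). Acsl5 rose by 0.64 ± 0.14 in LPS (edgeR adjusted p = 0.00679), but did not pass with library totals alone (0.0859), with the deposited log2 values (0.0756), without control 1 (0.0755) or without control 2 (0.14). LPS + VD3 differed from LPS in 0 of the 19.

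Among 6 genes that supply NADPH, LPS lowered Idh1 and Me2, and the 4 tested others did not pass. Idh1, the cytosolic isocitrate dehydrogenase, had 391 and 337 CPM in LPS + VD3, 150 and 157 CPM in LPS, and 323 and 320 CPM in control. It fell in LPS by 1.07 ± 0.15 against control (edgeR adjusted p = 0.000333) and was higher in LPS + VD3 than in LPS by 1.25 ± 0.15 (edgeR adjusted p = 0.00162), with no overlap of the LPS libraries with either other group. Of the nuclear receptors that act on these genes, Nr1h3, the sterol-sensing receptor LXR alpha that activates Srebf1, had 10.9 and 13.9 CPM in LPS + VD3, 49.0 and 31.5 CPM in LPS, and 36.4 and 28.6 CPM in control. Its log2 fold change was -1.69 ± 0.27 in LPS + VD3 against LPS (edgeR adjusted p = 0.00731) and -1.39 ± 0.27 in LPS + VD3 against control (0.00265). The first did not pass without LPS + VD3 1 (0.127), without LPS + VD3 2 (0.112) or without the filter on low counts (0.0529). Rxra, the partner of these receptors, was at -1.10 ± 0.17 in LPS against control and Pparg, a lipid-activated receptor, at -0.80 ± 0.16 (edgeR adjusted p = 0.000662 and 0.00311), and without control 2 Pparg did not pass (0.0685). Vdr, the receptor of vitamin D, had 32.8 and 39.2 CPM in LPS + VD3, 4.71 and 3.84 CPM in LPS, and 77.2 and 79.9 CPM in control, and Nr1h2, the other LXR, was higher in LPS than in control by 0.81 ± 0.26 (edgeR adjusted p = 0.036). Nr1h2 did not pass under several alternatives, among them library totals alone (0.144), the fits without control 1 (0.143) and control 2 (0.16), and the fit without LPS 1, where it was at 0.30 ± 0.18 (0.219).

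Exons of 10 of the 34 genes overlap another annotated gene on the opposite strand and those of 3 on the same strand. The longest is that of Fdps, with 1124 bases shared with Gm43738 on the same strand. On the opposite strand Scap shares 785 bases, Fdft1 774, Hmgcs1 557, Lss 381 and Idi1 323. The other 7 share at most 166 bases with any one gene, the length for Cyp51 with Akap9. The annotation and strand setting behind the deposited counts are not stated, so it is not known how reads in these overlaps were counted. Genes without such overlaps can share sequence with other genes, as Acaca and Acat2 do, so they are not all more certain.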

How the data were processed

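RNA-seq was done in mouse alveolar macrophages of 3 groups with 2 libraries each. RNA came from the Qiagen RNeasy Micro kit and libraries from the KAPA mRNA HyperPrep kit, per the labels' protocols. The authors deposited raw read counts for each gene, and per the submitters' processing notes TopHat2, edgeR and mm10 were used. The counting program, annotation, strand setting and handling of multiply matching reads were not given in the sources used here. A second deposited table holds log2 values, which equal log2(CPM + 1) of the counts within 0.00423 and served only as an alternative.

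The test was edgeR 4.0.16 under R 4.3.3, with filterByExpr (minimum count 10, minimum total 15), TMM scaling, 3 group means fitted to all 6 libraries by quasi-likelihood (glmQLFit without its legacy option), 3 contrasts, and Benjamini-Hochberg adjustment over 10724 genes at 0.05. The SE is the size of the log2 fold change over the square root of F, and 95% intervals use the t distribution of the fit. CPM values are TMM-scaled, and RPKM values divide them by the exon length in GENCODE vM21. Shared 50-base stretches and exon overlaps come from the same annotation. The steps were tested on simulated counts. Libraries of each group differed by more than sampling noise, with a chi-square per degree of freedom of 9.64 in LPS + VD3, 25.3 in LPS and 2.45 in control.

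All 34 members are named, and values per library are given for Srebf1, Srebf2, Insig1 and each member called without overlap between groups; of each other list, up to 4 called genes with the smallest p per contrast are named. The members and lists were chosen with earlier results of these data known. Alternatives were DESeq2 1.42.0 and its size factors in edgeR, library totals alone, limma-voom and limma-trend (limma 3.58.1), no filter, only the groups compared, the replicate number as a block, a GC offset, and leaving out each library.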

Additional observations from a re-analysis of the deposited data

How the results depend on the processing

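Of the 19 genes called lower in LPS against control, 15 passed under each of 16 alternatives, while Hmgcs1, Idi1, Hsd17b7 and Scd1 lost their call without control 1 or control 2; no called member changed sign. Leaving out 1 library gave 1939 to 4826 genes called in LPS against control, 55 to 3670 in LPS + VD3 against LPS and 2126 to 5410 in LPS + VD3 against control. Members called in such fits numbered 7 to 14 sterol, 7 to 9 fatty acid and 1 to 4 SREBP system genes in LPS against control, 0 to 7, 0 to 1 and 0 to 3 in LPS + VD3 against LPS, and 8 to 15, 6 to 10 and 1 to 3 in LPS + VD3 against control. The whole table moved in these fits too, so member counts alone do not show a change particular to these pathways. In LPS + VD3 against LPS, 169 genes were called without the filter and 258 with these 2 groups alone. The GC offset gave 772, the replicate block 1152 and both together 1288. The cause was not tested. There, DESeq2, the replicate block and the block with GC offset each called 1 SREBP system gene, Srebf1, at -0.99 ± 0.19 with the replicate block (edgeR adjusted p = 0.00636). In LPS against control, 2 SREBP system genes were called with library totals alone, the GC offset, the replicate block with GC offset and the deposited log2 values, Stard4 and Insig1. In LPS + VD3 against control, 4 SREBP system genes were called with library totals alone and the deposited log2 values, and 2 with DESeq2. There were 3 with these 2 groups alone, the replicate block, the GC offset and both together. Srebf1 was among them in each of these fits. Of all genes, 29.1% (DESeq2) to 49.4% (these 2 groups alone) were called in them, against 35.0% in the main fit. Library totals alone put the median of all genes at -0.29 in LPS against control, where 26.2% of calls were then higher against 49.2%, and at -0.32 in LPS + VD3 against control (25.9% against 50.5%), while both medians are 0.01 with TMM. Deviations of same-numbered libraries correlated at 0.172 (LPS and control), 0.0894 (LPS + VD3 and control) and 0.196 (LPS + VD3 and LPS), over 2 libraries a group. The labels call the LPS + VD3 libraries LPS1 and LPS2 plus VD3 but do not say that a number marks a shared mouse, culture or day, so the numbers were not taken as pairs. Depth limits Elovl6 in LPS, Tm7sf2 and Fads2.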
